A study of Mus musculus with 6 samples.

Results

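Pyruvate oxidation and the citric acid cycle were followed in mouse hearts that overexpressed fatty acid synthase. The set was given as a list of 31 genes by name. It holds the mitochondrial pyruvate carrier, the pyruvate dehydrogenase complex with its kinases and phosphatase, the cycle enzymes, and the malate and aspartate enzymes that pass reducing equivalents into mitochondria. Each gene was read on its brightest probe set among those with a single gene symbol, that is, the one with the highest mean log2(signal + 16) over the arrays. Of the 31 genes, 30 had such a probe set and all 30 passed the brightness filter. The exception, Mpc2, was not analysed here. In all, 18193 genes had a probe set of this kind.

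The data are 6 Affymetrix expression arrays, 2 in each of 3 groups of male mice, all labelled as strain C57BL/6J. FASN-high and FASN-low hearts are from separate transgenic lines that carry a fatty acid synthase (FASN) transgene under the alpha-MHC promoter, a promoter of heart muscle cells. The control group consists of B6 mice of matched age, whose tissue label also reads as a transgenic heart although the titles call them controls. Each FASN level is 1 line, and level and line cannot be told apart. No label states that the arrays within a group are separate hearts, or whether animals were pooled. The p-values therefore reflect array-to-array spread alone, and that spread could be technical.

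Pyruvate made from glucose or lactate enters mitochondria through a carrier formed by Mpc1 and Mpc2. The pyruvate dehydrogenase complex then converts it to acetyl-CoA, and this step is switched off by kinases (Pdk) and switched on by phosphatases (Pdp). Acetyl-CoA from pyruvate or from fatty acids is burned in the citric acid cycle, which supplies the respiratory chain, and citrate that leaves mitochondria is the source of acetyl-CoA for fatty acid synthesis. Heart muscle depends on this cycle for its energy and expresses its genes strongly.

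These genes were among the brightest on the arrays. The median of the 30 was brighter than 98.4% of the 22519 tested probe sets. Mdh1, at a mean log2 signal of 14.61, was the brightest and Pdk3, at 6.43, the dimmest. Arrays of a group correlated at 0.987 to 0.990 over the tested probe sets, and arrays of different groups at 0.969 to 0.977. The Fasn probe set differed as labelled, higher than control by 3.35 on the log2 scale in FASN-high hearts and by 1.17 in FASN-low hearts (limma, adjusted p = 5.58e-08 and 3.83e-05). The 10 heart muscle cell markers read together 253312 to 281202 units in FASN-high hearts, 203938 to 208466 in FASN-low hearts and 221828 to 229434 in control, and none of them was at 0.

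The first comparison, FASN-high hearts against control, asks how the pathway stood where cardiac FASN was strongest. Of the cycle enzymes 5, from Ogdh to Mdh2, rose by small amounts, as did Got2, while Idh3b, Pdpr, Dld, Pdhx and Got1 fell. The rises, of Ogdh, Dlst, Sucla2, Sdhc, Mdh2 and Got2, had log2 differences between 0.20 and 0.33. A gene is said to rise or fall where limma's adjusted p, taken over all tested probe sets, was below 0.05. By this rule 6 of 30 rose and 5 fell. Of all tested probe sets 8.18% rose and 6.18% fell. Among the 738 tested probe sets of like brightness, those between the lower and upper quartile of the 30 genes (mean log2 signal 12.19 to 13.73), 15.2% rose and 15.0% fell. The genes' own shares, 20.0% and 16.7%, were near these under the deposited scaling. The median difference of the 30 genes was 0.13, beside 0.034 for the probe sets of like brightness and 0.037 for all tested probe sets. Only 1 of the 6 rises, that of Ogdh, was called with median centring of the arrays, and 14 of 30 genes rose with cyclic loess, beside 6.10% and 20.7% of the probe sets of like brightness under the same scalings. The genes' share of rises was thus above that of the equally bright probe sets with cyclic loess, and below it with median centring. With quantile normalization the median of the genes was 0.061, beside 0.023 for the equally bright probe sets. The rises of Sucla2 and Mdh2 were then not called. With a variance model that has no intensity trend, no rise and 2 falls were called by limma. In the fits that leave out 1 array, the rise of Ogdh was called in all 6, and the numbers of called genes varied. For these fits and the untrended model no share of equally bright probe sets is given. Over the set the 2 FASN-high arrays stood at medians of 0.18 and 0.094 from the control mean.

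The second comparison, FASN-low hearts against control, asks the same where FASN was raised less. Ogdh fell most, followed by Pdpr, Idh3b, Mpc1, Pdhx and Got2, and Pdha1 alone rose. In all 6 of 30 genes fell and 1 rose. Of all tested probe sets 10.8% fell and 13.5% rose, and of the probe sets of like brightness 31.6% fell and 9.62% rose, so that the share of falls, 20.0%, lay below that of equally bright probe sets. The median difference was -0.029, beside -0.075 for the probe sets of like brightness and 0.018 for all tested probe sets. Its sign depended on the scaling: quantile normalization gave 0.050, with 6 rises and 6 falls, and cyclic loess 0.054, with 5 rises and 5 falls. Of the probe sets of like brightness, 22.5% rose and 24.3% fell with quantile normalization, and 21.7% rose and 21.3% fell with cyclic loess.

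The third comparison sets FASN-high against FASN-low hearts. Ogdh differed most. Dlat, Sucla2, Sdha, Sdhb, Sdhc, Fh1, Mdh2, Mpc1 and Got2 were also higher in FASN-high hearts, and Dld and Idh3b were lower. In all 10 of 30 genes were higher and 2 lower. Of all tested probe sets 9.69% were higher and 8.87% lower, and of the probe sets of like brightness 32.0% were higher and 8.27% lower. The genes' shares, 33.3% and 6.67%, were thus near those of equally bright probe sets. The median difference was 0.13, beside 0.091 for the probe sets of like brightness and 0.0055 for all tested probe sets. With quantile normalization the median became -0.021, with 4 genes higher and 8 lower. With cyclic loess it was 0.023, with 5 higher and 4 lower, and median centring left 4 higher and 2 lower. Of the probe sets of like brightness, 19.1% were higher and 19.5% lower with quantile normalization, 19.5% and 19.0% with cyclic loess, and 18.0% and 6.50% with median centring. Ogdh, Mdh2 and Got2 were the genes called higher in each of the 6 fits that leave out 1 array, and Idh3b the one called lower. The first and second comparison share their 2 control arrays and are not independent of each other.

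**Figure D1:**
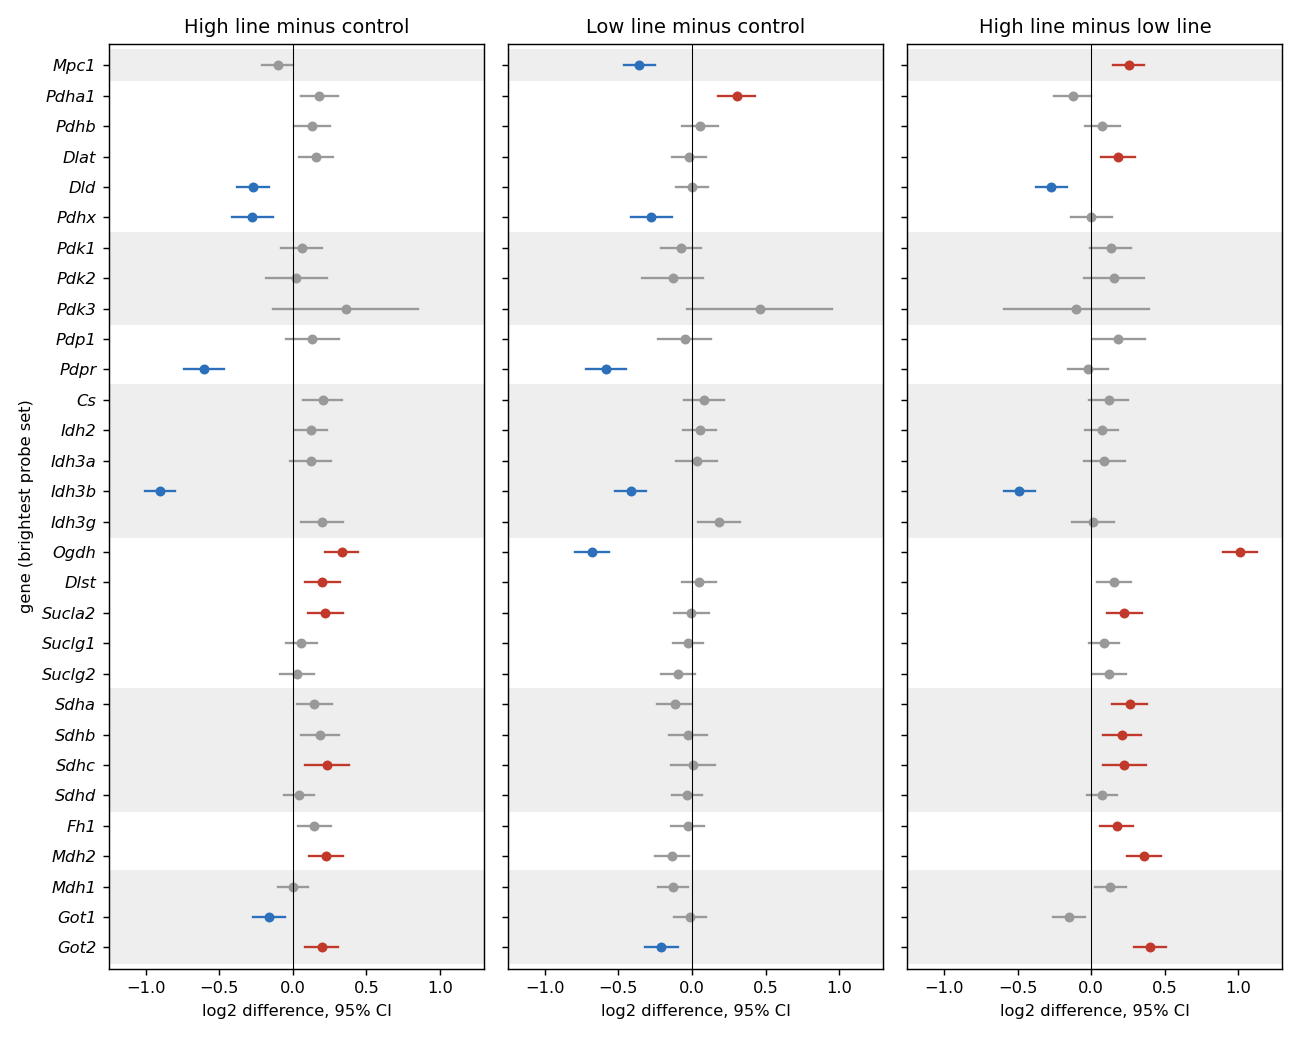
Log2 differences of the 30 genes with 95% confidence intervals from limma, for the 3 comparisons (x axis, log2 units; y axis, genes grouped by role with alternating shading). Red marks genes called higher, blue genes called lower and grey genes not called. Ogdh stands at 0.33 in FASN-high hearts and -0.68 in FASN-low hearts, and Idh3b at -0.90 and -0.42.

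**Figure D2:**
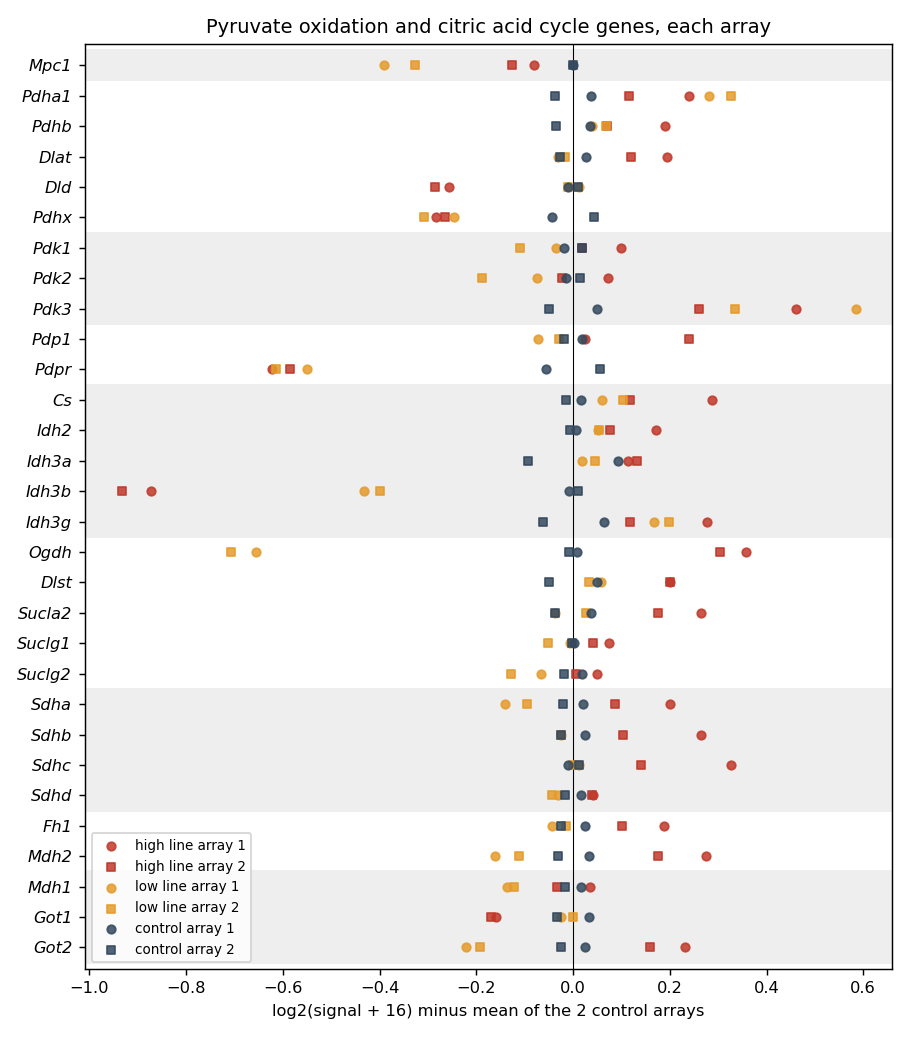
Every array's log2(signal + 16) for the 30 genes, minus the mean of the 2 control arrays (x axis, log2 units; y axis, genes grouped by role with alternating shading). Circles are replicate 1 and squares replicate 2. The arrays of Ogdh and Idh3b form 3 separate groups and those of Pdpr lie below control in both lines, with Ogdh at 0.33 in the mean of FASN-high hearts and -0.68 in that of FASN-low hearts.

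At the entry to the pathway, Mpc1, a subunit of the mitochondrial pyruvate carrier, read 15491 and 15011 in FASN-high hearts, 12491 and 13061 in FASN-low hearts and 16399 and 16381 in control. The FASN-low arrays were the lowest, and no groups overlapped. Mpc1 fell in FASN-low hearts by 0.36 ± 0.047 (SE) on the log2 scale (limma, adjusted p = 0.000625), a 1.28-fold decrease, under all 17 alternative settings. In FASN-high hearts it stood at -0.10 (adjusted p = 0.18). The lines differed by 0.26 (adjusted p = 0.0059), but by 0.067 with quantile normalization (adjusted p = 0.228; 0.00269 to 0.228 over the alternatives), and the difference was not called without FASN-low array 1.

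The pyruvate dehydrogenase complex did not move as a unit. Pdha1, the catalytic subunit that the kinases phosphorylate, read 13928 and 12779 in FASN-high hearts, 14338 and 14783 in FASN-low hearts and 12107 and 11486 in control. Both lines lay above control. Pdha1 rose in FASN-low hearts by 0.30 ± 0.056 (limma, adjusted p = 0.00396) and stood at 0.18 in FASN-high hearts (adjusted p = 0.0646). The rise was not called without FASN-low array 2. A dimmer Pdha1 probe set gave larger rises, of 1.09 in FASN-low hearts and 0.61 in FASN-high hearts (limma, adjusted p = 0.000172 and 0.00697). On it FASN-high hearts were lower than FASN-low hearts by 0.48 (adjusted p = 0.0171). The partner subunit Pdhb was not called in any comparison, with log2 differences of 0.05 to 0.13.

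Dld encodes the dehydrogenase that the pyruvate, oxoglutarate and branched-chain complexes share. It read 5517 and 5411 in FASN-high hearts, 6650 and 6548 in FASN-low hearts and 6551 and 6646 in control. Only the FASN-high arrays stood apart. Dld fell there by 0.27 ± 0.047 (limma, adjusted p = 0.00511), and the confidence interval in FASN-low hearts ran from -0.11 to 0.11. The fall was not called without control array 2, nor with the untrended variance model.

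Pdhx, which anchors that dehydrogenase to the pyruvate complex, fell in both lines, by 0.27 in FASN-high hearts and 0.28 in FASN-low hearts (limma, adjusted p = 0.0171 and 0.0102). The difference between the lines had a confidence interval of -0.14 to 0.14. Neither fall was called without control array 2, and that in FASN-low hearts was also lost without FASN-low array 2. Dlat, the acetyltransferase core, was higher in FASN-high than FASN-low hearts by 0.18 (adjusted p = 0.0383). A second Dlat probe set was higher by 0.24 and another lower by 0.37 (adjusted p = 0.0157 and 0.00188), so the direction for Dlat rests on the probe set. Its call on the brightest one was lost under 11 of 17 alternatives.

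Among the regulators, the kinase genes were not called on their brightest probe sets. Pdk1 stood at 0.06 in FASN-high hearts and -0.07 in FASN-low hearts, and Pdk2 at 0.02 and -0.13. Pdk3, the dimmest of the set at 52.8 to 90.7 units, stood at 0.36 and 0.46, with a confidence interval of -0.13 to 0.85 in FASN-high hearts. A second Pdk1 probe set was lower in FASN-high hearts by 0.28 against control (limma, adjusted p = 0.0161). Pdk4, a kinase gene outside the list whose transcription rises with fatty acid supply, stood at -0.20 in FASN-high hearts and -0.18 in FASN-low hearts (adjusted p = 0.0542 and 0.053).

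Pdpr encodes the regulatory subunit that lowers the activity of pyruvate dehydrogenase phosphatase. It read 2264 and 2324 in FASN-high hearts, 2381 and 2279 in FASN-low hearts and 3364 and 3633 in control. All 4 transgenic arrays lay well below both controls. Pdpr fell by 0.60 ± 0.060 in FASN-high hearts and by 0.58 ± 0.060 in FASN-low hearts (limma, adjusted p = 0.000244 and 0.000171), 1.52-fold in the former, and both falls were called under all 17 alternatives. A second Pdpr probe set fell by 0.57 in FASN-low hearts alone (adjusted p = 0.00168) and stood at -0.12 in FASN-high hearts. Another fell by 0.24 and 0.23 (adjusted p = 0.0244 and 0.0192). The catalytic subunit gene Pdp1 was not called in any comparison, at 0.13 in FASN-high hearts and -0.05 in FASN-low hearts.

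The first steps of the cycle held 1 large difference. Cs, citrate synthase, stood at 0.20 in FASN-high hearts (limma, adjusted p = 0.051) and 0.08 in FASN-low hearts. A second, nearly as bright Cs probe set rose in FASN-high hearts by 0.32 (adjusted p = 0.00883). Idh2, the mitochondrial isocitrate dehydrogenase that makes NADPH, was not called, at 0.12 and 0.05.

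Idh3a, Idh3b and Idh3g encode the subunits of the NAD-linked isocitrate dehydrogenase. Idh3b read 10315 and 9886 in FASN-high hearts, 14005 and 14317 in FASN-low hearts and 18777 and 19021 in control, so the groups formed 3 separate steps. It fell by 0.90 ± 0.047 in FASN-high hearts, 1.87-fold, and by 0.42 ± 0.047 in FASN-low hearts, 1.33-fold (limma, adjusted p = 3.02e-06 and 0.000263). Between the lines the difference was -0.49 (adjusted p = 0.000248). A dimmer Idh3b probe set ran the opposite way. It read 783 and 900 in FASN-high hearts, 880 and 983 in FASN-low hearts and 418 and 442 in control, and rose by 0.94 and 1.08 (limma, adjusted p = 0.000292 and 7.23e-05). Another Idh3b probe set stood at -0.06 and -0.09 and was not called. With all 3 averaged FASN-high hearts stood at -0.0087 and FASN-low hearts at 0.19, and neither was called (adjusted p = 0.962 and 0.12). The arrays give no single direction for Idh3b RNA. The name of the brightest probe set ends in _s_at, the array maker's mark for probes shared by several transcripts. Whether the probe sets read different Idh3b transcript forms, or the brightest one also another gene, was not tested. Idh3a and Idh3g were not called on their brightest probe sets, with Idh3g at 0.20 and 0.18. A pair of dimmer Idh3a probe sets rose in FASN-low hearts, by 0.22 and 0.32 (adjusted p = 0.0158 and 0.0172).

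Ogdh, the substrate-binding subunit of the oxoglutarate dehydrogenase complex, gave the clearest contrast between the lines. It read 6493 and 6250 in FASN-high hearts, 3209 and 3095 in FASN-low hearts and 5091 and 5031 in control. FASN-high hearts lay above control and FASN-low hearts below it, with no overlap. Ogdh rose in FASN-high hearts by 0.33 ± 0.051, 1.26-fold, and fell in FASN-low hearts by 0.68 ± 0.051, 1.60-fold (limma, adjusted p = 0.00272 and 2.69e-05). The 2 lines differed 2.02-fold, by 1.01 on the log2 scale (adjusted p = 1.03e-05). The fall in FASN-low hearts and the difference between the lines were called under all 17 alternatives, at -0.71 to -0.62 and 0.80 to 1.04. A second, dimmer Ogdh probe set read 598 and 578 in FASN-high hearts, 395 and 377 in FASN-low hearts and 692 and 595 in control. It fell in FASN-low hearts by 0.71 and differed between the lines by 0.59 (limma, adjusted p = 0.000861 and 0.00374), but stood at -0.12 in FASN-high hearts. The rise in FASN-high hearts thus rests on the brighter probe set. With the probe sets averaged it was 0.10 and not called (adjusted p = 0.286; 0.000769 to 0.286 over the alternatives).

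**Figure D3:**
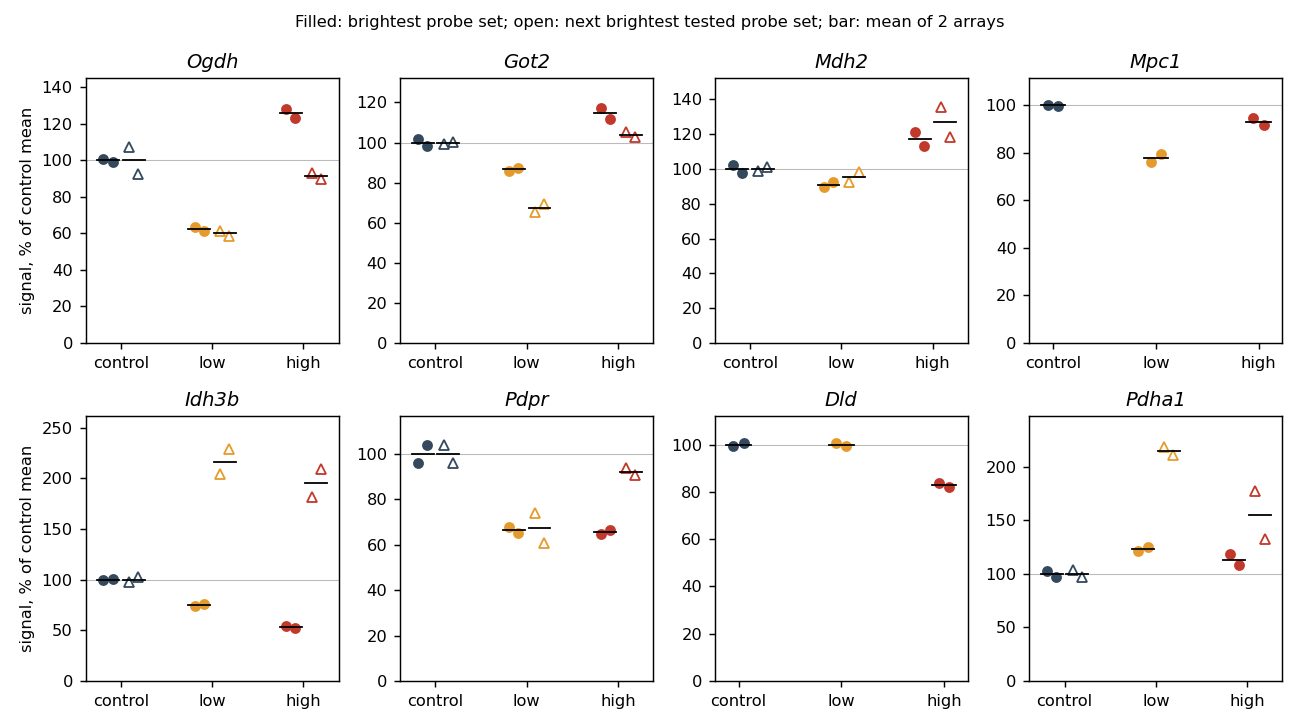
Signal of 8 genes as a percentage of the control mean of the same probe set (y axis from 0; x axis, group). Points are single arrays, filled for the brightest probe set and open for the next brightest tested one, and bars are means of 2 arrays. On both Ogdh probe sets FASN-low hearts lie below the other groups, whereas the Idh3b probe sets run in opposite directions.

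The promoters of Ogdh and Idh3b are shown because these genes differed most between groups on their brightest probe sets. With 1 chromosome left out of the search, RefSeq on GRCm38.p6 gave promoter windows of 300 bases for 28 of the 31 genes, 36 windows in all. They were searched on both strands for AAGGTCA, the core element bound by several nuclear receptors including the estrogen-related receptors, and for CACGTG, the E-box. AAGGTCA occurred in 3 of the 36 windows (8.33%), those of Got1, Ogdh and Sdhd, and in 4.72% of the 32851 windows searched. CACGTG occurred in 5 of the 36 (13.9%), those of Ogdh, Pdk2 and Pdpr, and in 7.15% of the 32851. Counted by gene this was 3 of 28. Some Ogdh windows overlap and hold the same CACGTG site, so windows are not independent and their share is no measure of enrichment. Neither motif contains the other. Of 6 Ogdh windows 1 held AAGGTCA. It lies at chr11:6291920-6292219 on the plus strand, and its match is on the minus strand. The leftmost base of the match on the printed strand is at position -5, and the match runs across the start site. The Idh3b window lies at chr2:130284402-130284701 on the minus strand and held no match. Capitals mark the Ogdh match, which reads as the reverse complement of AAGGTCA on the printed strand.
Ogdh: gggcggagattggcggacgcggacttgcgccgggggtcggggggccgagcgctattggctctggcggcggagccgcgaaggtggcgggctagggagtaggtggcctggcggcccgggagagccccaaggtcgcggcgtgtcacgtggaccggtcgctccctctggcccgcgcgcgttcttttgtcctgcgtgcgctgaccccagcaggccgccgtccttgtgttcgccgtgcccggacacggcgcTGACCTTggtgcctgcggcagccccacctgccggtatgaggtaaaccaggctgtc
Idh3b: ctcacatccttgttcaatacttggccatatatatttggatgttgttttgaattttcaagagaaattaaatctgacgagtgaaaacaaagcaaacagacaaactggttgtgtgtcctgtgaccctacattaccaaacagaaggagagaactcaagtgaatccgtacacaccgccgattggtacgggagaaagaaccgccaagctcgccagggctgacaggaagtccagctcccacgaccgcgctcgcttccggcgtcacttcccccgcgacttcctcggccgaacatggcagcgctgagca

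The succinyltransferase of the oxoglutarate complex and the next enzyme showed small differences. Dlst, that transferase, read 6835 and 6834 in FASN-high hearts, 6187 and 6078 in FASN-low hearts and 6152 and 5743 in control. The FASN-high arrays stood apart, and the other groups overlapped. It rose in FASN-high hearts by 0.20 ± 0.052 (limma, adjusted p = 0.0307), a call lost under 9 of 17 alternatives. Sucla2, the ATP-forming subunit of succinyl-CoA synthetase, read 14414 and 13551 in FASN-high hearts, 11694 and 12227 in FASN-low hearts and 12305 and 11694 in control, again with only the FASN-high arrays apart. Its rise of 0.22 in FASN-high hearts (adjusted p = 0.0236) became 0.12 with quantile normalization (adjusted p = 0.0528; 0.0051 to 0.19 over the alternatives). Suclg1 and Suclg2, the shared and the GTP-forming subunits, were not called, between -0.10 and 0.12.

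Succinate dehydrogenase, which is also respiratory complex II, is made of Sdha, Sdhb, Sdhc and Sdhd. Sdha read 13938 and 12885 in FASN-high hearts, 10992 and 11348 in FASN-low hearts and 12299 and 11951 in control. FASN-high hearts were highest and FASN-low hearts lowest. Against control Sdha stood at 0.14 and -0.12, not called, and the lines differed by 0.26 (limma, adjusted p = 0.00896). Sdhb and Sdhc were higher in FASN-high than FASN-low hearts by 0.21 and 0.23 (adjusted p = 0.0342 and 0.0412), and Sdhc rose against control by 0.23 (adjusted p = 0.0439). That rise of Sdhc was lost under 10 of 17 alternatives. A dimmer Sdhc probe set stood at -0.22 in FASN-high hearts (adjusted p = 0.23), and with the probe sets averaged the value was 0.0053 (adjusted p = 0.974; 0.00392 to 0.974 over the alternatives). Sdhd was not called, at 0.04 and -0.04, while a dimmer Sdhd probe set fell in FASN-high hearts by 0.47 (adjusted p = 0.00433). With quantile normalization the difference between the lines was 0.10 for Sdha and -0.058 for Sdhb, neither of them called.

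At the end of the cycle, Fh1, fumarase, was higher in FASN-high than FASN-low hearts by 0.17 (limma, adjusted p = 0.0392), which turned to -0.013 with quantile normalization. Mdh2, the malate dehydrogenase of the cycle, read 23539 and 21981 in FASN-high hearts, 17403 and 18006 in FASN-low hearts and 19893 and 19024 in control, with no overlap between groups. It rose in FASN-high hearts by 0.23 ± 0.052 (adjusted p = 0.019) and was higher there than in FASN-low hearts by 0.36, 1.28-fold (adjusted p = 0.00181). A second Mdh2 probe set gave 0.34 and 0.41 (adjusted p = 0.00835 and 0.00313). With quantile normalization the brightest probe set gave 0.065 and 0.097, neither called (adjusted p = 0.213 and 0.0607; up to 0.213 and 0.0674 over the alternatives).

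The malate-aspartate shuttle carries the reducing power of cytosolic NADH into mitochondria. Got2, its mitochondrial transaminase, behaved like Ogdh in direction. It read 13740 and 13063 in FASN-high hearts, 10029 and 10236 in FASN-low hearts and 11897 and 11508 in control, with no overlap. It rose in FASN-high hearts by 0.20 ± 0.049 and fell in FASN-low hearts by 0.21 ± 0.049 (limma, adjusted p = 0.0272 and 0.013). Both calls against control were lost with median centring. The lines differed by 0.40 (adjusted p = 0.000788), a call kept under 16 of 17 alternatives, and the second Got2 probe set differed by 0.62 (adjusted p = 0.000186). That second probe set fell by 0.57 in FASN-low hearts (adjusted p = 0.00014) and stood at 0.05 in FASN-high hearts. Ogdh and Got2 were the 2 genes of the set called in opposite directions in the lines. Got1, the cytosolic transaminase, fell in FASN-high hearts by 0.16 (adjusted p = 0.0493), a call lost in each fit without 1 array. Mdh1, the cytosolic malate dehydrogenase, was not called on its brightest probe set, at 0.0011 and -0.13. Its next 2 probe sets rose in FASN-high hearts by 0.22 and 0.21 (adjusted p = 0.00952 and 0.0391).

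The other probe sets of these genes were compared with the brightest one. There were 30 further tested probe sets, of 19 genes. In FASN-low hearts 7 of them belonged to genes called on the brightest probe set, of which 5 were called the same way and 1, of Idh3b, the opposite way. In FASN-high hearts 2 of 10 were called the same way and 1, again of Idh3b, the opposite way. Between the lines 5 of 10 were called the same way and 1, of Dlat, the opposite way. Signs matched those of the brightest probe set for 23 of 30 in FASN-high hearts, 18 in FASN-low hearts and 21 between the lines.

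Scaling of the arrays bore on the small differences. The hybridization controls, bacterial and phage transcripts spiked into each sample, were higher in FASN-high than FASN-low hearts by a median of 0.27, higher than control by 0.077 in FASN-high hearts and lower by 0.19 in FASN-low hearts. The brightest 5% of tested probe sets, which hold 23 of the 30 genes, had medians of 0.060 in FASN-high hearts, -0.093 in FASN-low hearts and 0.13 between the lines. Under each of quantile normalization, median centring and cyclic loess, 5 of the 11 calls in FASN-high hearts were kept, those of Dld, Pdhx, Pdpr, Idh3b and Ogdh. In FASN-low hearts 6 of 7 were kept, those of Pdha1, Pdhx, Pdpr, Idh3b, Ogdh and Mpc1. Between the lines 4 of 12 were kept, those of Dld, Idh3b, Ogdh and Got2. The other calls were lost under at least 1 of the 3 scalings.

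**Figure D4:**
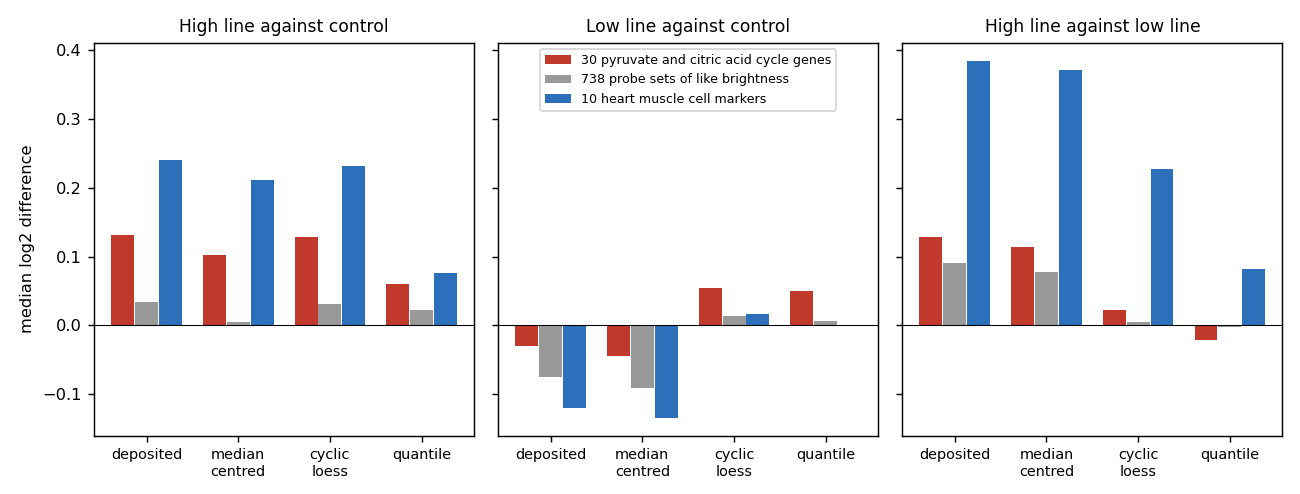
Median log2 difference (y axis) under the deposited scaling and 3 other scalings (x axis) for the 30 pathway genes (red), 738 tested probe sets of like brightness (grey) and 10 heart muscle cell markers (blue). Between the lines the pathway median goes from 0.13 to -0.021 with quantile normalization, and the marker median from 0.38 to 0.082.

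Under the deposited scaling the medians of heart muscle cell markers had the same signs as those of the set. With quantile normalization the medians between the lines had unlike signs, 0.082 for the markers and -0.021 for the set. Of the 10 markers, among them Myh6, Tnnt2 and Actc1, 8 rose in FASN-high hearts on their brightest probe sets, with a median of 0.24. Between the lines 8 were higher in FASN-high hearts, with a median of 0.38. In FASN-low hearts 1 fell, with a median of -0.12, which turned to 0.0012 under quantile normalization and to 0.017 under cyclic loess. With median centring 1 rose in FASN-high hearts (median 0.21), with quantile normalization 2 (median 0.076) and with cyclic loess 9 (median 0.23). Of the probe sets as bright as the pathway genes 6.10%, 18.8% and 20.7% rose under these scalings. A dimmer Myh6 probe set stood at -0.22 in FASN-high hearts, 0.62 in FASN-low hearts and -0.84 between the lines (limma, adjusted p = 0.0393, 0.000145 and 7.47e-05). The part of the marker shift in the differences above was not tested. In whole heart RNA, more cells of a type and more RNA per cell cannot be told apart. Markers of brown fat, a tissue also rich in mitochondria, read together 46746 to 52559 units in FASN-high hearts, 41333 to 42536 in FASN-low hearts and 45584 to 46349 in control. Of 5 tested, 2 rose and 1 fell in FASN-high hearts, and Ucp1 rose by 5.12 on the log2 scale. In FASN-low hearts, where the sum lay below control, 2 rose and 0 fell, with a highest difference of 3.21. The median of these 5 in FASN-high hearts, 0.094, became -0.059 with quantile normalization. White adipocyte markers read 25150.0 to 27956 units in FASN-high hearts, 22139 to 22750 in FASN-low hearts and 19946 to 20352 in control, and 3 of 4 rose in each line. Fibroblast markers read 43411 to 44362 units in FASN-high hearts, 46751 to 48452 in FASN-low hearts and 31652 to 32146 in control, and 5 of 7 rose in FASN-high hearts and 6 in FASN-low hearts. Airway markers read 3010 to 3206 units in FASN-high hearts against 218 to 254 and 139 to 186, and 4 of 5 rose there. Lymphocyte markers read 1727 to 1739 units in FASN-low hearts, 342 to 374 in FASN-high hearts and 40.8 to 114 in control, and the 1 that was tested rose in each line. Endothelial markers read 5163 to 5283 units in FASN-high hearts, 4877 to 5166 in FASN-low hearts and 4090.0 to 4183 in control, and 3 of 4 and 2 of 4 rose. Macrophage markers read 7430 to 7571, 8226 to 8473 and 7920 to 8108 units in the same order, and red cell markers 109 to 131, 69.6 to 71.3 and 22.6 to 62.4. None of these was at 0, and their part in the result was not tested. Each sum weights the brightest genes of its list most, so it does not measure the amount of a cell type. Of all tested probe sets 8.18% rose and 6.18% fell in FASN-high hearts, and 13.5% rose and 10.8% fell in FASN-low hearts. Between the lines 9.69% were higher and 8.87% lower.

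Modules that work beside the cycle were set next to it. Of 33 complex I genes 5 rose in FASN-high hearts and 7 fell in FASN-low hearts, with medians of 0.093 and -0.12, and 22 were higher in FASN-high than FASN-low hearts, with a median of 0.21. Of 18 fatty acid oxidation genes 8 fell and 1 rose in FASN-low hearts, with a median of -0.13, and 11 were higher in FASN-high than FASN-low hearts, with a median of 0.24. Of 11 glycolytic genes 5 fell in FASN-low hearts, with a median of -0.18. The pyruvate and citric acid cycle set stands beside these at -0.029 in FASN-low hearts and 0.13 between the lines. Of all tested probe sets 8.18% rose in FASN-high hearts, 10.8% fell in FASN-low hearts and 9.69% were higher between the lines. Of the 738 probe sets as bright as the pathway genes, 15.2% rose, 31.6% fell and 32.0% were higher in the same comparisons. Scaling mattered here too. With quantile normalization the complex I median was -0.012 in FASN-high hearts, -0.024 in FASN-low hearts and 0.012 between the lines, where 5 genes were called higher and 3 lower. With cyclic loess none of the 33 complex I genes fell in FASN-low hearts and 2 rose (limma). The fatty acid oxidation and glycolysis medians kept their signs under the 3 other scalings, between -0.15 and -0.016 and between -0.20 and -0.12 in FASN-low hearts. Whether the modules differ was not tested.

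Genes that feed or drain the cycle were taken as a list of 42, of which 39 were measured. In FASN-high hearts 9 rose and 2 fell, in FASN-low hearts 4 rose and 9 fell, and 12 were higher and 1 lower in FASN-high than FASN-low hearts. Of all tested probe sets 8.18% rose and 6.18% fell in FASN-high hearts, and 13.5% rose and 10.8% fell in FASN-low hearts. Between the lines 9.69% were higher and 8.87% lower. The citrate carrier and the enzyme that uses its product rose in FASN-high hearts. Slc25a1, the mitochondrial citrate carrier, read 282 and 309 in FASN-high hearts, 89.9 and 119 in FASN-low hearts and 97.2 and 67.7 in control, and rose by 1.68 in FASN-high hearts (limma, adjusted p = 0.000758). Its FASN-high arrays stood apart, while FASN-low and control arrays overlapped. Acly, which splits exported citrate, rose by 1.43 and 0.42 (adjusted p = 7.43e-07 and 0.000985). Pcx, pyruvate carboxylase, which refills the cycle with oxaloacetate, rose by 0.59 in FASN-high hearts (adjusted p = 0.00513) and was higher there than in FASN-low hearts by 0.87 (adjusted p = 0.000686). These calls of Slc25a1, Acly and Pcx were made under every alternative that tested them.

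Bckdha and Dbt, subunits of the branched-chain complex that uses the same Dld subunit, fell in FASN-low hearts by 0.92 and 0.65 (limma, adjusted p = 2.59e-05 and 0.000524). Bckdha also fell in FASN-high hearts, by 0.28 (adjusted p = 0.0232), a call kept under 11 of 17 alternatives. Lias, which makes the lipoic acid carried by Dlat, Dlst and Dbt, rose in FASN-high hearts by 0.29 and fell in FASN-low hearts by 0.27 (adjusted p = 0.0192 and 0.0183). These calls of Lias were kept under 11 and 13 of 17 alternatives, and its difference of 0.56 between the lines (adjusted p = 0.000773) under all 17. A dimmer Lias probe set fell in FASN-low hearts by 0.24 and differed between the lines by 0.29 (limma, adjusted p = 0.0188 and 0.0112). It stood at 0.048 in FASN-high hearts (adjusted p = 0.657), so the rise there rests on the brighter probe set. Glud1, which makes oxoglutarate from glutamate, rose in FASN-low hearts by 0.50 (adjusted p = 0.000309) and was lower in FASN-high than FASN-low hearts by 0.46 (adjusted p = 0.000876).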

How the data were processed

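The authors deposited an intensity on a linear scale for every probe set. Per the submitters' processing notes these came from GCOS, Affymetrix software. Its algorithm and target were, in the sources used here, not given. The means of the 6 columns after trimming 2% at each end were all 300.002, so the deposited scaling was kept. Of 45101 probe sets, 64 controls were set aside, and 34945 of the other 45037 had 1 gene symbol. Symbols were updated through Entrez identifiers to RefSeq on GRCm38.p6, which changed 0 of them. Intensities were analysed as log2(signal + 16), which understates changes of dim genes. The 22519 probe sets at or above the median brightness entered 1 limma 3.58.1 model of 3 group means (lmFit, eBayes with intensity trend, R 4.3.3; 3 residual and 6.43 prior degrees of freedom), with two-sided p-values adjusted by the Benjamini-Hochberg method. The model was checked on simulated arrays. Genes named are the listed pathway genes, a list of pathway neighbours and marker lists. The genes and lists were chosen with earlier results of these data known. The reference of like brightness was added after the values were seen. The number of arrays limits the precision. Alternatives were other scalings, offsets of 1 and 64, other filters, variance models and probe set rules, a replicate block, and leaving out arrays. Plots used matplotlib 3.10.9 (Python 3.11.15).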

Additional observations from a re-analysis of the deposited data

Results flagged for a closer look

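The difference between the lines, tested by limma over all probe sets, was called for 12 of the 30 genes, so their departures from the shared controls differed. This share, 40.0%, was near the 40.2% called among probe sets of like brightness. Of all tested probe sets 18.6% were called. FASN-high hearts were above FASN-low hearts by 1.01 on the log2 scale for Ogdh, 0.40 for Got2, 0.36 for Mdh2, 0.26 for Sdha, 0.26 for Mpc1 and 0.23 for Sdhc. They were above by 0.22 for Sucla2, 0.21 for Sdhb, 0.18 for Dlat and 0.17 for Fh1. The difference was -0.49 for Idh3b and -0.27 for Dld. Of these 12, the calls of Ogdh, Got2, Idh3b and Dld were kept under all 3 other scalings.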

How the results depend on the processing

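The counts of called genes were sensitive to the model. Shares of equally bright probe sets are given above only under the deposited scaling, quantile normalization, median centring and cyclic loess. Under the other fits, counts of pathway genes cannot be told apart from a change in calls among equally bright probe sets. Against 6 rises in FASN-high hearts, cyclic loess gave 14, and median centring, no filter and only the 4 arrays compared gave 1 each; against 5 falls, the fit without an intensity trend gave 2 (and 0 rises). Of equally bright probe sets, 20.7% rose in FASN-high hearts with cyclic loess and 6.10% with median centring. Against 1 rise in FASN-low hearts, quantile normalization gave 6, cyclic loess 5, only the 4 arrays compared 2 and no trend 0. Against 10 higher and 2 lower between the lines, quantile normalization gave 4 and 8, cyclic loess 5 and 4, no trend 1 and 1, median centring 4 higher, no filter 5 and only the 4 arrays compared 6. The medians of 0.13, -0.029 and 0.13 became 0.061, 0.050 and -0.021 with quantile normalization, and the last 2 became 0.054 and 0.023 with cyclic loess. Leaving out 1 array gave 1 to 15 rises and 2 to 4 falls with a median of 0.094 to 0.18 in FASN-high hearts, 0 to 2 rises and 4 to 9 falls with -0.054 to -0.015 in FASN-low hearts, and 3 to 12 higher and 1 to 3 lower with 0.099 to 0.15 between the lines. With quantile normalization called values turned sign for Mdh1 in FASN-high hearts (-0.20), and between the lines for Pdhb (-0.19), Cs (-0.12), Idh3g (-0.16), Sdhb (-0.058), Fh1 (-0.013) and Mdh1 (-0.18). With a gene's probe sets averaged, Sdhd in FASN-high hearts (-0.21) and Idh3b in FASN-low hearts (0.19) turned. The causes were not tested. A further 69 sign changes among 1527 single-gene values were of values called on neither side. With the replicate block 9 genes rose and 4 fell in FASN-high hearts and 2 rose in FASN-low hearts. Deviations of same-numbered arrays correlated at 0.00040 to 0.040. With 2 arrays per group these correlations cannot show whether same-numbered arrays were paired, and the titles state no pairing.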
